A study of Arabidopsis thaliana with 3 samples.

Results

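The EDS1 family and the helper receptors form a signalling core of immunity through intracellular receptors with a TIR domain in Arabidopsis. The 8 genes described here were looked up among 27444 nuclear protein-coding genes, 6 by name and 2 by locus. They are the EDS1 family genes EDS1 (AT3G48090), PAD4 (AT3G52430) and SAG101 (AT5G14930), the ADR1 helper receptor genes ADR1 (AT1G33560), ADR1-L1 (AT4G33300) and ADR1-L2 (AT5G04720), and the NRG1 helper receptor genes NRG1.1 (AT5G66900) and NRG1.2 (AT5G66910). Places bound by AtDEK2, a chromatin protein of the DEK type, were mapped by chromatin immunoprecipitation and sequencing in 14-day-old seedlings. All 3 samples came from dek2-1 mutants that carried DEK2-YFP under the DEK2 promoter (pDEK2::DEK2-YFP), 2 of them precipitated with anti-GFP, an antibody that also binds YFP, and 1 an input without antibody and without values used here. How many transgenic lines were used is not stated in the labels. The labels of these samples name no bacterial or mock treatment. Samples without the fusion were not analysed here, so an enrichment below is over the background modelled by the peak caller. The labels number the immunoprecipitates 1 and 2 without saying whether the plants were grown apart, so differences between them may be technical.

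EDS1, PAD4 and SAG101 are lipase-like proteins. EDS1 pairs with either PAD4 or SAG101, and the pairs respond to small nucleotide signals made by receptors with a TIR domain. The EDS1 and PAD4 pair works with the ADR1 helpers, which promote salicylic acid synthesis and restriction of pathogen growth, and the EDS1 and SAG101 pair works with the NRG1 helpers, which promote cell death. Helper receptors are nucleotide-binding leucine-rich repeat proteins with an RPW8-like coiled-coil domain, and they act downstream of the receptors that detect effectors.

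The first question was which of these genes carried a DEK2-YFP peak. A gene was counted when the summit of a peak, its highest point, lay inside it or within 500 bp of either end. In replicate 1 all 8 genes had a peak, where 66.7% of all protein-coding genes did. In replicate 2 PAD4, SAG101, ADR1-L1, NRG1.1 and NRG1.2 had a peak (5 of 8, against 37% of all protein-coding genes), and EDS1, ADR1 and ADR1-L2 had none. Peaks were termed shared when at least 50% of the shorter one lay within a peak of the other replicate, and a shared peak was placed by its replicate 1 summit. The same 5 genes had a shared peak, where 34.2% of all protein-coding genes had one. The 8 genes are longer than most, with a median of 3284 bp against 2078 bp. Among the 9514 protein-coding genes of their length range, 2484 to 6071 bp, the shares were 78.5% in replicate 1, 45.8% in replicate 2 and 42.4% for shared peaks. The members were chosen by function but with earlier results of these data known, and they are too few for a test. These counts are therefore given as a description.

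**Figure D1:**
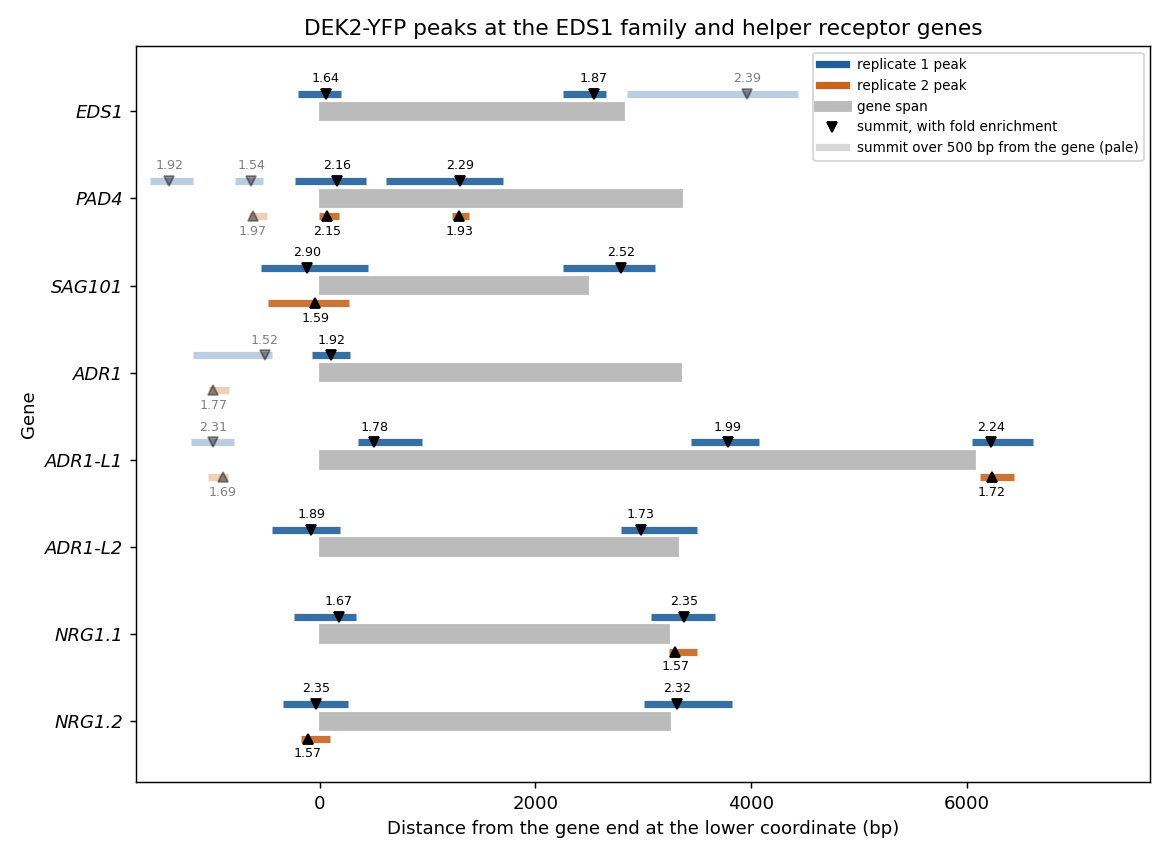
Peaks of replicate 1 (blue, above) and replicate 2 (orange, below) along each gene (grey bar), by distance in bp from the gene end at the lower coordinate, with the summit as a triangle and its fold enrichment. Peaks whose summit lies over 500 bp from the gene are pale; the strand of the genes is not shown. PAD4 has 2 peaks of both replicates inside the gene, and EDS1, ADR1 and ADR1-L2 have replicate 1 peaks only within 500 bp.

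In all, 15 peaks of replicate 1 and 5 of replicate 2 lay at the 8 genes. The peak between NRG1.1 and NRG1.2 counts for both genes in each list. All 5 replicate 2 peaks were shared, where 88.9% of that whole list was, and 5 of the 15 replicate 1 peaks were, where 42.0% of that whole list was. The fold enrichment, which is the authors' own value for each peak, ran from 1.64 to 2.90 in replicate 1 (median 1.99, against 1.82 for the whole list). In replicate 2 it ran from 1.57 to 2.15 (median 1.72, against 2.02 for the whole list). The peaks at these genes thus stood above the middle of the first list in 11 of 15 cases and above the middle of the second in 1 of 5.

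Within the EDS1 family, PAD4 had 2 shared peaks, SAG101 had 1 and EDS1 had none. EDS1, the common partner of both pairs, had 2 peaks in replicate 1. The first, on chromosome 3 from 17755128 to 17755532, peaked 59 bp inside the gene end at the lower coordinate, with a fold enrichment of 1.64 and a −log10 q of 4.62. The second lay from 17757586 to 17757985, with its summit 277 bp inside the other end, a fold of 1.87 and a −log10 q of 11.0. The peaks of EDS1 therefore sat at its ends, and neither was found in replicate 2. The first summit is also 198 bp from EDS1B (AT3G48080), the near-identical neighbour of EDS1, which lies 138 bp away. The sources used here do not say how reads with several matches were treated, so signal in EDS1 and EDS1B cannot be told apart.

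PAD4, the partner that works with the ADR1 helpers, was the only one of the 8 genes with shared summits inside the gene. Its first peak lay on chromosome 3 from 19430871 to 19431526 in replicate 1 (fold 2.16, −log10 q 12.6) and from 19431087 to 19431275 in replicate 2 (fold 2.15, −log10 q 4.47). The summits were 163 and 73 bp inside the gene from its end at the lower coordinate. The fold enrichments of the replicates differed by less here than at any other shared peak of the 8 genes. The second peak lay from 19431709 to 19432797 in replicate 1 (fold 2.29, −log10 q 17.9) and from 19432322 to 19432480 in replicate 2 (fold 1.93, −log10 q 3.46). Its summits were 1304 and 1295 bp inside, 9 bp apart, at 38.9% and 38.6% of the gene's length. A shared summit more than 500 bp inside from both ends was found in 2.12% of all protein-coding genes and in 4.09% of those of the members' length. At least 2 shared peaks were found in 5.87% and 8.43%. No other annotated gene lies within 500 bp of these summits.

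SAG101, the partner that works with the NRG1 helpers, had the highest fold of the 8 genes in replicate 1 and close to the lowest in replicate 2. Its shared peak lay on chromosome 5 from 4827957 to 4828947 in replicate 1 (fold 2.90, −log10 q 34.3) and from 4828026 to 4828774 in replicate 2 (fold 1.59, −log10 q 1.80). These folds exceeded 97.8% of the first list and 3.89% of the second. The summits lay outside SAG101, 114 bp from it in replicate 1 and 38 bp in replicate 2. They fall in the 114 bp gap that separates SAG101 from AT5G14920, listed as GASA14, from which they are 1 and 77 bp away. Each replicate thus placed the summit closer to a different gene of the pair. At the other end, replicate 1 had a peak from 4830756 to 4831611 (fold 2.52, −log10 q 18.7), 315 bp outside SAG101 and 286 bp outside AT5G14940. This peak was not found in replicate 2.

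Of the ADR1 helpers, only ADR1-L1 had a shared peak. ADR1, the first described member, had 1 peak in replicate 1, on chromosome 1 from 12168695 to 12169049 and peaking 109 bp inside the gene (fold 1.92, −log10 q 8.01). ADR1-L2 had 2 in replicate 1. One lay on chromosome 5 from 1360146 to 1360783, 75 bp outside the gene and 239 bp from AT5G04710 (fold 1.89, −log10 q 18.3). The other lay from 1363382 to 1364089, 341 bp inside and 399 bp from AT5G04730 (fold 1.73, −log10 q 7.43). Neither gene had a replicate 2 peak within 500 bp.

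ADR1-L1, the longest of the 8 at 6071 bp, had 3 peaks in replicate 1. The summit of the first, on chromosome 4 from 16050817 to 16051404, was 508 bp inside the gene (fold 1.78, −log10 q 6.72) and 99 bp from AT4G33290, which overlaps ADR1-L1 by 410 bp. The second, from 16053899 to 16054526, lay 2288 bp inside from the nearer end (fold 1.99, −log10 q 12.3) and 345 bp from the non-coding RNA gene AT4G08785. The third was shared. It lay from 16056500 to 16057069 in replicate 1 (fold 2.24, −log10 q 15.5) and from 16056575 to 16056887 in replicate 2 (fold 1.72, −log10 q 2.27), with summits 152 and 157 bp outside the gene and 5 bp apart. That is the closest match of summits among the 5 shared peaks. The same summits also lie within 500 bp of AT4G08785, AT4G33310 and AT4G33320, so the peak cannot be given to ADR1-L1 alone.

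The NRG1 helpers are tandem neighbours 171 bp apart, and their shared peak lies between them. It ran on chromosome 5 from 26717791 to 26718392 in replicate 1 (fold 2.35, −log10 q 23.8) and from 26717958 to 26718224 in replicate 2 (fold 1.57, −log10 q 2.19). In replicate 1 the summit was 33 bp from NRG1.2 and 139 bp from NRG1.1, and in replicate 2 it was 61 bp from NRG1.1 and 111 bp from NRG1.2. The nearer gene therefore changed between the replicates here too. Each gene had 1 more peak in replicate 1, at its far end. That of NRG1.1 lay from 26714489 to 26715062 with its summit 177 bp inside (fold 1.67, −log10 q 4.88), and 428 bp from the third tandem copy, NRG1.3 (AT5G66890). That of NRG1.2 lay from 26721133 to 26721956, 64 bp outside (fold 2.32, −log10 q 21.9). Neither was found in replicate 2, although the latter exceeded 85.3% of the replicate 1 list.

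Set side by side, 2 of 3 EDS1 family genes and 3 of 5 helper genes had a shared peak, from 3 and 2 separate peaks. The share was 34.2% over all protein-coding genes and 42.4% over those of the members' length. In replicate 1 the family's 6 peaks had a median fold of 2.22 (1.64 to 2.90) and the helpers' 9 peaks a median of 1.92 (1.67 to 2.35). In replicate 2 the medians were 1.93 (3 peaks, 1.59 to 2.15) and 1.65 (2 peaks, 1.57 and 1.72). The ranges of the classes overlap in both replicates. Peaks of 1 list share a library and the NRG1 peak is counted once, so no test was made of this difference, and none is claimed. By helper class, 1 of 3 ADR1 genes and 2 of 2 NRG1 genes had a shared peak. Of the genes with a shared peak, PAD4 alone had the summit inside the gene (1 of 5), where 44.7% of all protein-coding genes with a shared peak did. Counted over all genes, a shared summit inside was found in 15.3%, and in 21.4% of those of the members' length. Without the need for a match, EDS1, PAD4, ADR1, ADR1-L1, ADR1-L2 and NRG1.1 had a replicate 1 summit inside. That is 6 of 8, against 36.1% of all protein-coding genes and 48.3% of those of the members' length. PAD4 alone had a replicate 2 summit inside (1 of 8, against 17% and 23.7%).

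Replicate 1 summits near gene ends were counted after the positions had been seen. By the counting rule, a summit outside a gene always lies within 500 bp of an end. EDS1, SAG101, ADR1-L2, NRG1.1 and NRG1.2 had summits within 500 bp of both ends (5 of 8), where 25.3% of all protein-coding genes and 32.5% of those of the members' length did. ADR1-L1 missed this count by 8 bp at its lower end, PAD4 had no summit at its higher end, and ADR1 had a single peak. PAD4 and ADR1-L1 had a replicate 1 summit more than 500 bp inside from both ends (2 of 8). Such a summit was found in 5.76% of all protein-coding genes and in 10.9% of those of the members' length. All genes but ADR1 had at least 2 replicate 1 peaks (7 of 8), against 28.6% of all protein-coding genes and 38.1% of those of the members' length. In replicate 2 none of the 8 genes had peaks at both ends, and the share over all genes was not computed for that list. It is the shorter list, with 13307 peaks against 25742, and PAD4 alone had 2 peaks in it.

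Neighbouring genes shared most of these summits. Of the 15 replicate 1 peaks, 9 also lay within 500 bp of another protein-coding gene, as did 3 of the 5 shared peaks. Over the whole series this holds for 32.9% of the replicate 1 peaks and 31.1% of the shared peaks that lie near any protein-coding gene. The neighbours concerned were EDS1B at EDS1, AT5G14920 and AT5G14940 at SAG101, AT4G33290, AT4G33310 and AT4G33320 at ADR1-L1, AT5G04710 and AT5G04730 at ADR1-L2, and NRG1.3 and the other NRG1 gene at the NRG1 pair. When each replicate 1 summit was given to the nearest protein-coding gene only, SAG101 and NRG1.1 lost their shared peak. That left PAD4, ADR1-L1 and NRG1.2 (3 of 8, against 27.1% of all protein-coding genes). The same rule on the replicate 2 list kept PAD4, SAG101, ADR1-L1 and NRG1.1 (4 of 8, against 29.8%). The widest distance among the counted summits was 315 bp, at SAG101. Just beyond the limit was a shared peak at ADR1, on chromosome 1 from 12167598 to 12168330 in replicate 1 (fold 1.52) and from 12167746 to 12167932 in replicate 2 (fold 1.77), with summits 505 and 983 bp outside the gene.

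**Figure D2:**
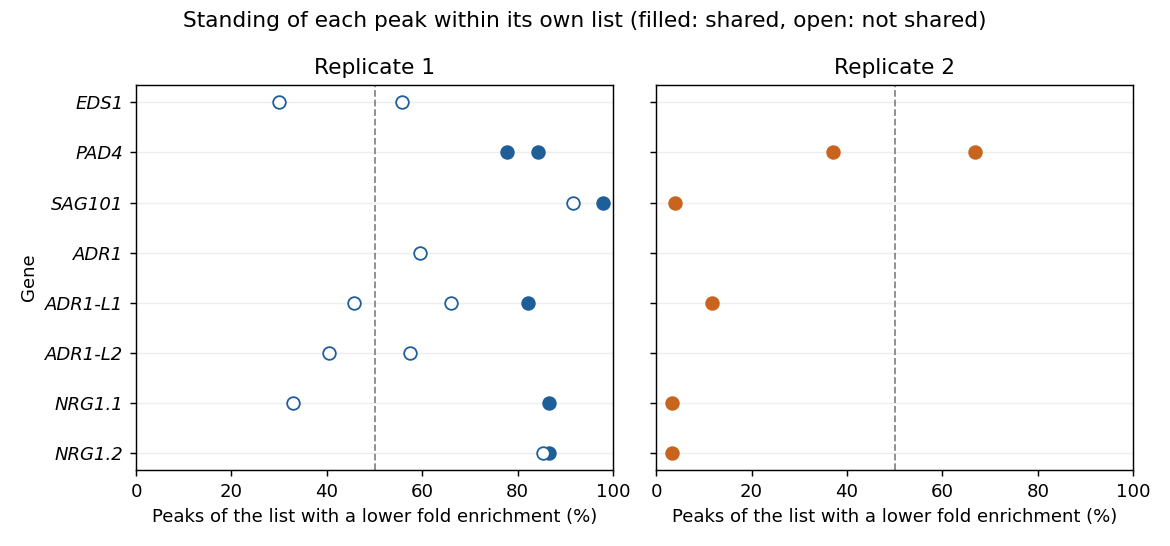
Standing of each peak within its own list, as the percentage of peaks of that list with a lower fold enrichment, for replicate 1 (left) and replicate 2 (right). Filled points are shared peaks, open points are not, and the dashed line marks the middle of the list; the SAG101 peak goes from 97.8% to 3.89%.

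The next question was how far the replicates gave the same picture. Read counts were not used here, but the fold and p-value of a peak together give the pileup over the summit, which in replicate 2 is a whole number of fragments, and the modelled background. The median background over all peaks was 25.2 in replicate 2. In replicate 1 it was 64.7 on its scaled values, an approximate figure from the nearest whole pileup, which fitted 3.06% of its peaks. At PAD4 the replicate 2 pileups were 52 fragments over a background of 23.6 and 54 over 27.5. At SAG101 the pileup was 56 over 35.0, and at ADR1-L1 it was 51 over 29.2. At the NRG1 pair it was 70 over 44.1, a pileup above that of 88.4% of the list on a background above 98.4% of it. In replicate 1 the pileup is a scaled value and not a count of fragments. It was between 201 and 203 at the same peak, over a background of 85.0 to 85.6, and between 199 and 201 at the SAG101 peak, over 68.0 to 68.6.

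Replicate 1 peaks of higher fold are found again more often in the list as a whole. At the 8 genes, 4 of the 6 peaks in the highest 2 of 10 equal groups by fold were shared, where 74.0% and 89.7% of all peaks in those groups were. In the group below, with folds from 2.04 up, the 1 peak present was shared, at PAD4. None of the 8 peaks with lower folds was shared, where the groups that held them ran from 25.4% to 49.8%. The pair of strong peaks without a replicate 2 match lay at the far ends of SAG101 and NRG1.2. Weaker enrichment in replicate 2, under the authors' threshold, would not be listed.

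**Figure D3:**
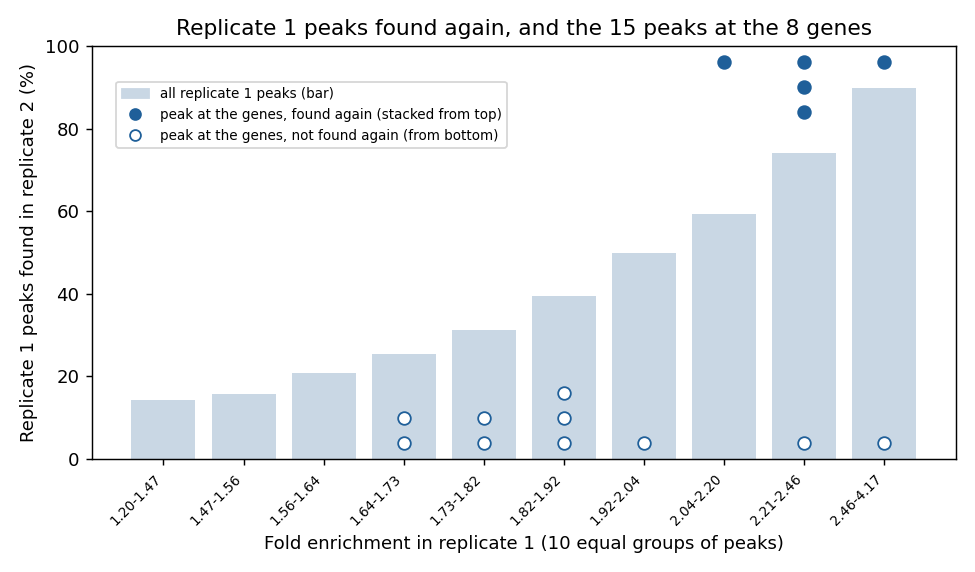
Percentage of all replicate 1 peaks found in replicate 2 (bars) in 10 equal groups by fold enrichment. Each point is 1 of the 15 peaks at the 8 genes, in its fold group: filled points, found again, are stacked from the top and open points, not found again, from the bottom, so that their height carries no value. All 5 filled points lie in the 3 groups of highest fold.

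Other genes of the pathway were taken from a list made by role, 36 genes in all. Of these, 25 had a replicate 1 peak (69.4%, against 66.7% of all protein-coding genes). A replicate 2 peak was found at 19 (52.8%, against 37%) and a shared peak at 15 (41.7%, against 34.2%). Among protein-coding genes of the members' length the shares were 78.5%, 45.8% and 42.4%. No set was matched to the lengths of the 36 genes themselves. The close copies EDS1B, NRG1.3 and ADR1-L3 had no shared peak. EDS1B had the replicate 1 peak it has in common with EDS1, NRG1.3 had 2 replicate 1 peaks with a best fold of 1.75, and ADR1-L3 (AT5G47280) had no peak in either list.

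Upstream, 3 of 12 TIR receptor genes had a shared peak, against 34.2% of all protein-coding genes. They were RPP5, a downy mildew resistance gene (fold 1.59 in replicate 1 and 2.08 in replicate 2), SNC1 and RPS6. The paired receptor genes RPS4 and RRS1 had only a single replicate 1 peak between them (fold 1.56), and RPP1, RPP4, CHS1 and RBA1 had no peak. Of 3 genes of the branch used by coiled-coil receptors, RPS2 (2.05 and 1.80) and RPM1 (1.89 and 1.92) had shared peaks. These receptors detect bacterial effectors through the host proteins they guard. NDR1, a membrane protein gene needed by several of these receptors, had a replicate 1 peak only (1.75).

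Of 8 genes for chaperones and restraints of receptor signalling, 5 had a shared peak, against 34.2% of all protein-coding genes. Differences between the roles were not tested. HSP90.2, a chaperone gene, had 2 (2.09 and 1.57, and 2.15 and 2.24), and its co-chaperone gene RAR1 had 1 (1.83 and 1.65), while SGT1B, the third partner, had no peak in either list. NUDT7, a hydrolase gene that restrains EDS1 signalling, had 2.36 and 2.15. LSD1, a gene that limits spreading cell death, had 1.82 and 2.02, and the copine gene BON1 had 1.54 and 1.67. Downstream, 5 of 10 genes of salicylic acid and N-hydroxypipecolic acid signalling had a shared peak, against the same 34.2%. The regulator genes SARD1 (2.00 and 2.12) and CBP60G (2.12 and 1.86) were among them, as were the transporter gene EDS5 (1.48 and 1.72), ICS1 and NPR1. The enzyme genes PBS3 and ALD1 and the response gene PR1 had no peak, and FMO1 had replicate 1 peaks only. SARD4 was not counted as shared, although a peak beside it was in both lists (1.75 and 2.07). The reason is that the replicate 1 summit lay 520 bp outside the gene and the replicate 2 summit 496 bp outside. For that reason the TIR receptor gene CHS3 (1028 and 73 bp outside) and SRFR1 (594 and 200 bp outside) were not counted as shared either. In 12 of the 15 pathway genes with a shared peak the replicate 1 summit lay inside the gene, against 1 of 5 members and 44.7% of all protein-coding genes with a shared peak, a comparison made after the values had been seen and not tested.

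**Figure D4:**
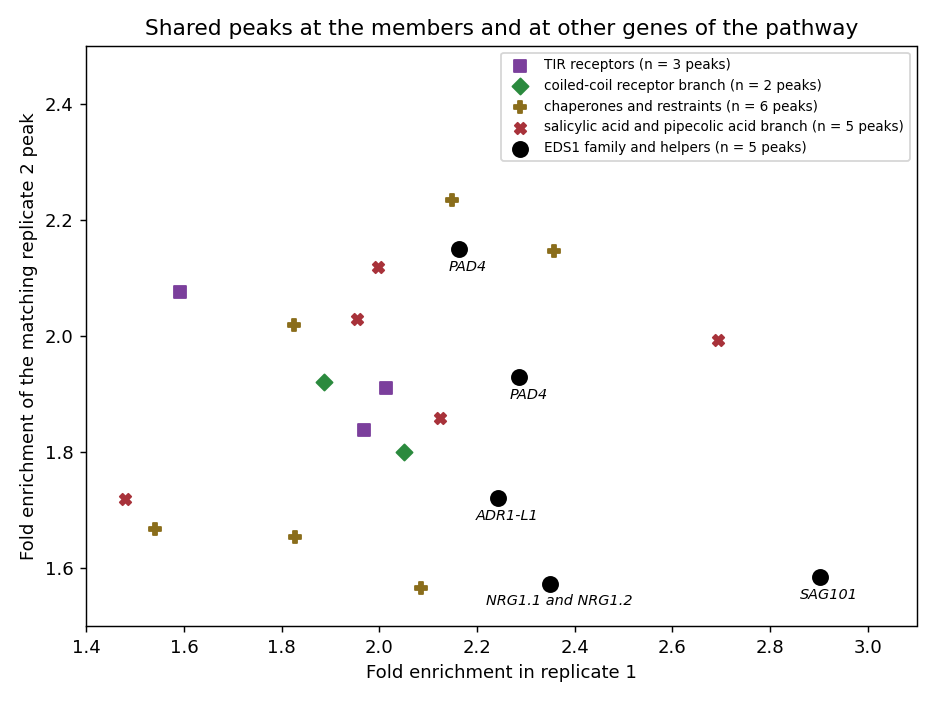
Fold enrichment of each shared peak in replicate 1 (horizontal) against that of the matching replicate 2 peak (vertical), for the members (black, labelled) and the other genes of the pathway by role. The 5 member peaks lie at 2.16 or more in replicate 1 and at 2.15 or less in replicate 2.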

How the data were processed

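Chromatin of 2 immunoprecipitates was sequenced by the authors, who deposited 1 narrowPeak list for each; the input has no values used here. Per the submitters' processing notes, the tools were MACS2 2.2.7.1, SAMtools 1.9, Bowtie2 2.3.5 and Trimmomatic 0.38 and the build was TAIR10; roles and settings are not listed. The sources used here do not say whether the input served as control or how duplicates were treated. The deposited score is the −log10 q times 10 as a whole number, to within 1. The deposited fold enrichment is a ratio at the summit over the modelled background. The deposited p-value and q-value columns hold −log10 values, and no peak had a −log10 q under 1.30. Replicate 1 held 25742 peaks and replicate 2 held 13307, of which 10812 and 11834 were shared. Coordinates are TAIR10, counted from 1.

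Gene spans came from a RefSeq table of TAIR10.1, which gives no strand, so gene ends are named by coordinate, and its own coordinates are not printed. Moving the shared summits by up to 1000 bp in steps of 100 bp, the share inside genes was lowest with no shift (41.3%, against 61.6% and 62.1% at the extremes), so peaks and genes are in register at that scale. Of the 8 members, 6 matched by name and 2, the NRG1 genes, by locus alone. Pileup and background were solved from fold and p under MACS2's formulas, a ratio with 1 added to both terms and a Poisson tail. In replicate 2 all peaks (100%) gave a whole pileup, to a tolerance of 0.001 on −log10 p. In replicate 1 the pileup is scaled and several solutions fit, so a range is given for single peaks. Its median background rests on the nearest whole pileup and is approximate.

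No chance test was run: the members and lists were chosen with earlier results of these data known. The text names all members, every gene that shares a summit with one, 3 close copies and the pathway genes with a shared peak; pathway genes without one were named after their values were seen. Promoter motifs, though planned, and sequences were not analysed here. The alternatives were the window, the overlap, the −log10 q, the nearest gene and each list alone. The code was tested on simulated data with Python 3.11.15, NumPy 2.4.6 and SciPy 1.17.1. A further pathway gene is not reported here and is left out of the counts.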

Additional observations from a re-analysis of the deposited data

How the results depend on the processing

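The count of 5 of 8 genes with a shared peak kept the same genes with any overlap of 1 bp (34.7% of all protein-coding genes). It rose to 6, with ADR1 added, with a window of 1000 bp (40.8%). For summits inside the gene it fell to 1 (15.3%), PAD4 of the EDS1 family, with 0 helpers. For an overlap of 50% of both peaks it fell to 2 (16.7%), SAG101 and ADR1-L1, 1 in each class. For the nearest gene only it fell to 3 (27.1%), 1 of them in the EDS1 family. With both lists limited to a −log10 q of 5 or more it was 0 in both classes (12.5%), since no replicate 2 peak at these genes reached that value. With 1 list left out it ran from 5 to 8 (EDS1 family 2 to 3, helpers 3 to 5), where the shares were 37% and 66.7%. In replicate 2 alone, the count of 5 fell to 1 for summits inside the gene (17%) and to 0 with that limit on q (13.6%). In replicate 1 alone, the count of 8 fell to 6 for summits inside the gene (36.1%) and to 7 for the nearest gene only (55.5%). It stayed at 8 with a window of 1000 bp (73.7%) and with that limit on q (54.9%). A pair of rules was added after the data were seen. Summits of both matching peaks within 500 bp gave 5 genes with a shared peak (33.1% of all protein-coding genes). Any part of the peak within 500 bp gave 6, and the share over all genes was not computed for that rule. These changes follow from the rules themselves. No paired analysis was possible because there is 1 group of immunoprecipitates and no test. With 2 replicates whose lists differ in length, absence from the replicate 2 list does not show absence of binding.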

Other observations

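Several peaks beside the 8 genes belong to a neighbour by their summits and were not counted above. Next to EDS1, a wide replicate 1 peak on chromosome 3 from 17758178 to 17759760 (1583 bp, fold 2.39, −log10 q 16.0) starts 31 bp beyond the gene. Its summit is 1145 bp away, inside RR5 (AT3G48100), a cytokinin response regulator gene, and it was not found in replicate 2. The far end of RR5 had a shared peak, from 17760642 to 17761341 in replicate 1 (fold 2.28) and from 17760767 to 17761037 in replicate 2 (fold 2.03). That is the only shared peak with a summit within 3000 bp of EDS1, at 2896 bp in replicate 1 and 2762 bp in replicate 2.

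Beside PAD4, the chloroplast outer envelope protein gene OEP7 (AT3G52420) had a shared peak from 19430312 to 19430572 in replicate 1 (fold 1.54) and from 19430439 to 19430611 in replicate 2 (fold 1.97), with summits 633 and 617 bp outside PAD4. Together with both PAD4 peaks, 3 shared peaks lie within 3000 bp of that gene. Beside ADR1-L1, a shared peak on chromosome 4 from 16049262 to 16049664 in replicate 1 (fold 2.31) and from 16049423 to 16049610 in replicate 2 (fold 1.69) has its summits 986 and 897 bp outside the gene, between AT4G33280 and AT4G33290.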
